A study of Mus musculus with 8 samples.

Results

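Acetylation of histone H3 at lysine 9 (H3K9ac) was mapped by chromatin immunoprecipitation and sequencing in mouse cerebellum, and 397 regions that lay away from every protein-coding gene were described. Each member is a stretch of DNA made by merging overlapping peaks from 4 libraries, knock-in replicates 1 and 2 and wild type replicates 1 and 2. A merged region was kept if at least 3 of these 4 peak lists had a peak in it, if it lay on an autosome or the X chromosome, and if it touched neither the body of a protein-coding gene nor the 1 kb on either side of its ends. The 397 regions were part of 16618 merged regions, of which 7511 were present in at least 3 of the 4 lists. Of the other reproducible regions, 5881 were gene-end regions, touching the 1 kb around an end of a protein-coding gene, and 1233 lay inside gene bodies. The members were thus chosen by measured detection in these 4 lists, and no test below compares that detection between genotypes. It does decide what was tested, since covered length was fitted only in regions with a peak in all 4 lists. Covered length and score percentile were read from the same peaks of these lists. Their size was not a criterion but is tied to the choice. Outside protein-coding genes, the median score percentile rose from 25.7 for regions in 2 lists to 51.8 for regions in 4. Only replicates 3 and 4 are independent of the choice.

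The series compares heterozygous knock-in mice, labelled 266Q and described as symptomatic, with wild type littermates. 266Q stands for an expanded tract of 266 glutamines in ataxin-7, the protein altered in SCA7 (spinocerebellar ataxia type 7), which belongs to the acetyltransferase complex SAGA. Both groups were C57BL/6 mice 9 weeks old, both were sampled as whole cerebellum, and both were precipitated with the same antibody against acetylated lysine 9, with 4 libraries per genotype. The labels do not say whether replicates came from separate animals or from pools, so p-values measure the spread between libraries, which may be technical.

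H3K9ac is deposited on nucleosomes next to active promoters and active enhancers. Genes without a protein product carry the same mark when they are transcribed: host transcripts of microRNAs (miRNAs, short RNAs that repress messenger RNAs through a seed near their 5′ end), long non-coding RNAs (lncRNAs), and the small RNAs of splicing and translation. Acetylated stretches with no annotated gene may be distal enhancers, unannotated start sites or repeats, and peak lists do not distinguish these.

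The members fell into 5 groups by the RefSeq annotation of GRCm38.p6, the assembly behind mm10. Within 1 kb, 14 regions had a miRNA gene, 25 had another small or structural RNA gene, 146 had only a lncRNA gene, 24 had only a pseudogene, and 188 had no listed gene. The 25 include 3 members with a gene of the miscellaneous RNA class, which need not be small or structural. A non-coding gene or pseudogene was thus present at 209 members (52.6%), and 197 of these overlapped it directly. The genes numbered 250, including 164 lncRNA genes, 22 miRNA genes, 12 small nuclear RNA genes, 10 transfer RNA genes and 6 ribosomal RNA genes.

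The miRNA sequences are shown because they name the most readable group of members and because several loci give RNAs with the same seed. They were taken from RefSeq (GRCm38.p6), are written 5′ to 3′, and have the seed, bases 2 to 8, in capitals. A mature sequence was matched for 17 of the 22 miRNA genes. A hairpin was matched for 15, and 11 of these hairpins lay wholly inside a member.
miR-9-5p: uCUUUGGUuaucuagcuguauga
miR-132-3p: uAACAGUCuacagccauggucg
miR-212-3p: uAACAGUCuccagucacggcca
miR-193a-3p: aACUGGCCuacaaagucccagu
miR-193b-3p: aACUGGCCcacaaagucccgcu
let-7i-5p: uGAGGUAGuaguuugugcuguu
miR-129-5p: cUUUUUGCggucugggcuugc
miR-17-5p: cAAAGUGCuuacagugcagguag
miR-497a-5p: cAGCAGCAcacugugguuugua
miR-760-3p: cGGCUCUGggucugugggga
Members at Mir9-1 and Mir9-3 encode the same mature miR-9-5p. The neighbouring hairpins Mir132 and Mir212, both inside a single member, share the seed AACAGUC. Mir193a and Mir193b, on different chromosomes, share the seed ACUGGCC.

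Promoters are shown where an annotated start site of a lncRNA fell inside a member. There were 72 such start sites, from 63 genes, in 57 members, and 52 of them lay within 500 bp of the middle of their member. The 6 promoters printed here hold the 4 that contain a cyclic AMP response element, together with those of Dleu2, the host of miR-15a and miR-16-1, and Chaserr, a lncRNA next to the chromatin remodeller gene Chd2. Each runs from 250 bases before to 50 after the start site on the gene's own strand. Capitals mark matches, on either strand and with overlaps allowed, to the cyclic AMP response element (TGACGTCA), the GC box (GGGCGG), the TATA box (TATAAA) and the E-box (CACGTG).
Gm3764 (chr3:88214232-88214531, plus strand): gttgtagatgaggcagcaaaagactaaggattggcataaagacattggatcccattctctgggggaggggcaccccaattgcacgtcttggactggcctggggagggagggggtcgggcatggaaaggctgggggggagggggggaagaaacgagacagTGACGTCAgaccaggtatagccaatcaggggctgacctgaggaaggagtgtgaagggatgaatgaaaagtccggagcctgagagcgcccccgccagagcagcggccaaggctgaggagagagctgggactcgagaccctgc
Mir9-3hg (chr7:79499776-79500075, plus strand): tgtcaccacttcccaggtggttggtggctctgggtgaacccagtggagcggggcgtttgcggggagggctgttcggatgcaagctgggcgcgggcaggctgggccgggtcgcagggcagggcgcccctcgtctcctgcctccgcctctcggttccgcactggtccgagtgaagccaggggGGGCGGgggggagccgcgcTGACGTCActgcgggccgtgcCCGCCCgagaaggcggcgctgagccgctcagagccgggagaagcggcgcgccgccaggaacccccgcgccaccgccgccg
9430091E24Rik (chr8:111145449-111145748, minus strand): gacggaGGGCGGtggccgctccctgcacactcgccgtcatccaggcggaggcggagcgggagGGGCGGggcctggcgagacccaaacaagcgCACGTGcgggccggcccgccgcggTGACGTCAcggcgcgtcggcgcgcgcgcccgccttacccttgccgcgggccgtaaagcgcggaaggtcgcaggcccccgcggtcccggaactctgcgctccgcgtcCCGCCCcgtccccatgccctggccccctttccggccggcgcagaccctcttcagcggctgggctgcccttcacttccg
Gm40545 (chr9:91350916-91351215, plus strand): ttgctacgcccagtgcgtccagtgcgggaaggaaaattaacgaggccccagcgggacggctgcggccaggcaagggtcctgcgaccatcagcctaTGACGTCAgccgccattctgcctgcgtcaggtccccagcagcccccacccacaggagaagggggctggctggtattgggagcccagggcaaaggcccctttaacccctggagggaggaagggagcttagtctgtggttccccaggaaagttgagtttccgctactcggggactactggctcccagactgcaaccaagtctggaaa
Dleu2 (chr14:61682324-61682623, minus strand): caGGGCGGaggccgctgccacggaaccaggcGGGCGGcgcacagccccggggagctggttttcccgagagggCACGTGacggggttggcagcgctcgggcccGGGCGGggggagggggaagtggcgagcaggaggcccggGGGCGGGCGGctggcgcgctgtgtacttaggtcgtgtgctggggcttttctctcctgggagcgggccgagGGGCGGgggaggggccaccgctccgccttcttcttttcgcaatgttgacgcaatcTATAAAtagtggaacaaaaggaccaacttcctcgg
Chaserr (chr7:73558346-73558645, minus strand): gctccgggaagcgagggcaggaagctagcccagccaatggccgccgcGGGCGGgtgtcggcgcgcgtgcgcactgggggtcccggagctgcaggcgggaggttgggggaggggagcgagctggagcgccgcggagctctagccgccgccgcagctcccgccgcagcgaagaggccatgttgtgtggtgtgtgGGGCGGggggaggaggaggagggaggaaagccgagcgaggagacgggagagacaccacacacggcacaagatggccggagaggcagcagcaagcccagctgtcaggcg
The cyclic AMP response element lay 83, 43, 126 and 147 bases before the start site in Gm3764, Mir9-3hg, 9430091E24Rik and Gm40545. It was inside the acetylated member for the last 3 and just before the member's start for Gm3764. The Dleu2 promoter held 6 GC boxes, and the Chaserr promoter held 2. The Dleu2 window also held 1 match to the TATA box, which lay after the start site and not before it.

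Over the 72 promoters the median GC content was 60.2%, against 48.3% over 11575 lncRNA promoters and 56.7% over 21044 protein-coding promoters of the same length in the same table. The median ratio of observed to expected CpG was 0.61 at the members, 0.24 over lncRNA promoters and 0.57 over protein-coding promoters. The cyclic AMP response element was present in 4 of 72 promoters (5.56%), in 0.976% of lncRNA promoters and in 1.79% of all promoters. A GC box was present in 41 (56.9%), against 16.3% and 35.7%. The TATA box was in 15.3%, against 15.5% of lncRNA promoters and 13.6% of all. The E-box was in 12.5%, against 5.90% and 7.15%. Over protein-coding promoters alone, these 4 motifs were in 2.26%, 46.7%, 12.7% and 7.91%, in the order above. Matches were counted anywhere in the window, before or after the start site. Start sites of the same gene were counted separately. Those of Mir670hg lay a few bases apart and held the same TATA match, which lay after each of them. These are descriptions of letters in a window and were not tested.

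The 4 libraries used by the rule had 7735 to 11409 peaks each, with median widths of 1065 to 1246 bp. Replicates 3 and 4 had 1266 to 5571 peaks with median widths of 132 to 148 bp, so their lists are not on the same scale. The lists hold no read counts, and sequencing depth is therefore unknown. As a check of the tissue, 9 or 10 of 10 granule cell marker genes had a peak at an end in the 4 long lists, and 2 to 4 of 8 Purkinje cell markers and 0 to 2 of 6 oligodendrocyte markers did. In knock-in 3, knock-in 4, wild type 3 and wild type 4, only 5, 0, 3 and 2 of the granule cell markers did. For Purkinje cell markers these counts were 1, 0, 2 and 0, so the replicate 4 lists hardly check the tissue. Of 4 vessel markers, 1 had a peak, in knock-in 3. No marker of astrocytes, microglia, forebrain, liver, muscle or photoreceptors had a peak in any of the 8 lists. Peaks on sequences not placed on a chromosome made up 0.189% to 0.401% of the 4 long lists, 2.08% and 4.77% of the replicate 3 lists, and 12.5% and 10.2% of the replicate 4 lists, knock-in first.

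Detection in the 4 long lists chose the members and is given as a description. Of all 3091 merged regions outside protein-coding genes, 2139 were in 1 list, 555 in 2, 220 in 3 and 177 in all 4. Reproducible regions thus made up 12.8% of regions outside genes, 66.8% of those at gene ends and 26.1% of those in gene bodies. The authors' score, expressed as a percentile within each list, had a median of 25.7 for regions in 2 lists, just outside the threshold, 38.0 for regions in 3, just inside it, and 51.8 for regions in 4. On the distance threshold, the members nearest to a gene lay 1077 bp from Tank, 1181 bp from Hexim2 and 1211 bp from Egr3, and regions 917 bp from Gm3435, 910 bp from Frmd8 and 868 bp from Hes1 were left out. Wild type replicate 2, the shortest of the 4 lists, was the one lacking at 115 of the 220 members in 3 lists (52.3%). Knock-in replicate 1 was lacking at 54 (24.5%), against 4.56% of the gene-end and 18.7% of the gene-body regions in 3 lists. On another base, all 188 members with no listed gene in 3 or 4 lists, knock-in replicate 1 was lacking at 35 (18.6%). It thus had a peak in 81.4% of these, against 86.4% of all 397 members.

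Members were a median of 1475 bp wide, from 631 to 6732 bp, against 1706 bp at gene ends and 1670 bp in gene bodies. The 14 regions at miRNA genes were wider, with a median of 2064 bp, than the 146 at lncRNA genes (1533.5 bp) or the 188 with no listed gene (1437.5 bp). The nearest protein-coding gene was a median of 19619 bp away, and the distance ranged from 1077 to 1955479 bp. Within 5 kb lay 82 members, 119 lay between 5 and 20 kb, 146 between 20 and 100 kb, and 50 farther than 100 kb. Members with and without a non-coding gene had similar distances, with medians of 22401 and 17676.5 bp.

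**Figure D1:**
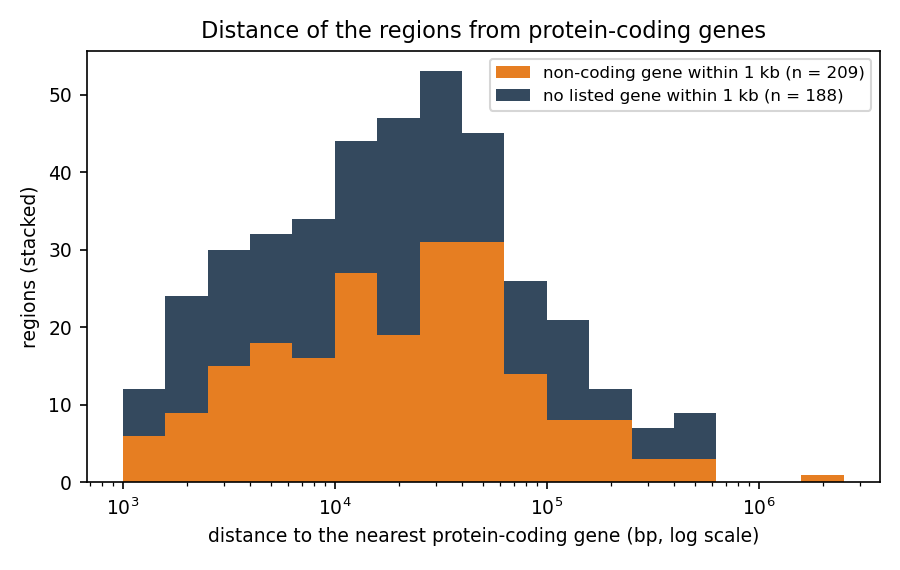
Number of members (vertical axis) by distance to the nearest protein-coding gene in bp (horizontal axis, log scale), stacked by whether a non-coding gene or pseudogene lay within 1 kb. Both kinds span the range from about 1 kb to over 100 kb, with medians of 22401 and 17676.5 bp, and 1 member, next to a pseudogene, lies 1955479 bp away.

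miRNA genes were the group in which values per library were most complete: 12 of the 14 regions had a peak in all 4 long lists. Values below are base pairs of the region covered by a library's peaks, in the order knock-in 1 and 2, then wild type 1 and 2. miR-124 is an abundant neuronal miRNA, and each of its 3 genes lay at a member. At Mir124a-1 (chr14:64586614-64592115) 5307, 4996, 4934 and 4859 bp were covered, which made it the widest miRNA locus, and its host transcript Mir124a-1hg overlapped it. At Mir124a-3 (chr2:180892500-180895263), between Bhlhe23 and Ythdf1, the values were 2464, 2624, 2248 and 1844 bp. Both loci were among the 5 members with the highest mean score percentile, 96.9 and 97.8, and both also had a peak in replicate 3 of each genotype. At Mir124a-2 (chr3:17793671-17795520) the values were 1568, 1315, 1604 and 659 bp, with wild type 2 alone low. A second member inside its host gene Mir124-2hg (chr3:17790133-17791256) had 891, 868 and 1053 bp and no peak in wild type 2.

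miR-9 controls neural progenitor and neuronal gene programmes, and 2 of its loci were members. At Mir9-1 (chr3:88214426-88216608), between Mef2d and Rhbg, 2112 and 2149 bp were covered in the knock-in lists and 1126 and 1230 bp in the wild type lists. The genotypes did not overlap there, and the fitted log2 difference was 0.86 ± 0.23 (SE, n = 2 per genotype), with an adjusted p of 0.557 (limma, Benjamini-Hochberg over all 5465 regions fitted), so the difference did not pass the test. This member also held the start site of Gm3764, printed above, and 2 more members lay nearby at AW047730 (chr3:88200113-88201667) and Gm3764 (chr3:88206559-88208056). At Mir9-3 (chr7:79504468-79506412) the values were 1574, 1945, 1341 and 1831 bp, and here the genotypes overlapped. The start of its host gene Mir9-3hg lay in a separate member (chr7:79498834-79502267) with 3023, 3420, 2273 and 2595 bp, both knock-in values being the higher ones.

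Mir132 and Mir212, whose transcription is known to respond to neuronal activity through CREB, lay together in 1 member (chr11:75171960-75174301) with 2296, 1409, 1993 and 990 bp. In both genotypes replicate 1 was the higher, and the genotypes overlapped. Mir129-2 (chr2:94240715-94242139) had 944, 804, 1425 and 1002 bp and was the only miRNA member covered less in both knock-in lists than in both wild type lists. Its log2 difference was -0.46 ± 0.27 (SE, n = 2 per genotype), with a limma adjusted p of 0.651. Mir129b is annotated on the opposite strand of the same hairpin, and peaks carry no strand, so the 2 cannot be told apart.

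Mirlet7i (chr10:122984768-122987029), a let-7 family gene near Mon2, had close values in the 4 lists, 2025, 1910, 1903 and 1830 bp. Mir760 (chr3:122292265-122294513) had 1938, 2241, 1901 and 1886 bp, lay next to the transfer RNA gene n-TRtct2, and had a peak in 7 of the 8 libraries. Mir17 (chr14:115040253-115042746), the first miRNA of the oncogenic miR-17 to miR-92 cluster, had 2494, 1564, 1931 and 1299 bp, and its hairpin lay past the end of the region. Mir193a (chr11:79710772-79712244) had 950, 1375, 1352 and 854 bp, and Mir193b (chr16:13447036-13448713) had 1444, 1112, 931 and 1617 bp. For these 2 genes of shared seed, the genotypes overlapped.

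The other 2 miRNA members had a peak in only 3 of the 4 long lists. Mir497 and Mir497b (chr11:70232054-70233890), on opposite strands of 1 site, had 1574 and 1777 bp in the knock-in lists, no peak in wild type 1 and 898 bp in wild type 2. Mir6236 (chr9:110281041-110282040) had 558 and 969 bp in the knock-in lists, no peak in wild type 1 and 314 bp in wild type 2, but 83 to 97 bp in each of the 4 shorter lists. Of the 12 miRNA members in all 4 long lists, 5 were covered more in both knock-in lists than in both wild type lists and 1 was covered less, where 35.4% and 4.68% of all 5465 regions in 4 lists did so. The first count was near this background.

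**Figure D2:**
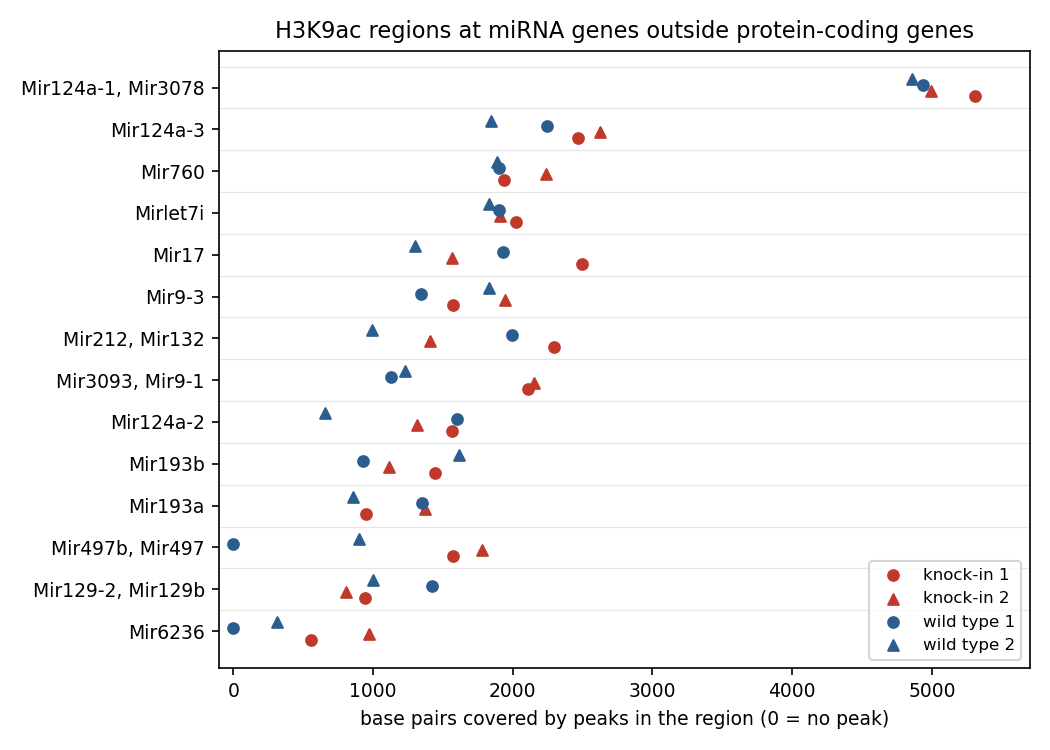
Base pairs covered by peaks (horizontal axis) at the 14 members with a miRNA gene (rows, labelled by the miRNA genes), in knock-in replicates 1 and 2 and wild type replicates 1 and 2 (points, 0 where the library had no peak). Mir124a-1 stands far to the right at 4859 to 5307 bp, Mir9-1 has both knock-in points above both wild type points, and Mir129-2 has both below.

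Among lncRNAs, 4 of the 30 listed nuclear and structural genes found in the annotation lay at a member: Malat1, Norad, Crnde and Dleu2 (13.3%). The same held for 10 of 45 listed small RNA host genes and miRNA genes (22.2%) and for 2 of 21 listed RNA polymerase III and small nuclear RNAs (9.52%), against 250 of all 27237 non-coding genes and pseudogenes (0.918%). These lists were written with earlier results of these data known, so the shares are descriptions.

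Malat1, an abundant nuclear RNA of splicing speckles, was flanked by 2 members, 1 over the gene's upstream end (chr19:5799350-5802612) and 1 beyond it (chr19:5802826-5804412), with its start site at 5802672 in the gap. Coverage in the first was 1797 and 3263 bp in knock-in and 3065 bp in wild type 1, and in the second 1416, 1031 and 848 bp. Neither had a peak in wild type 2. Norad, which sequesters Pumilio proteins, had a member at an end (chr2:156392278-156393377) with 869 bp in knock-in 1, no peak in knock-in 2, and 1100 and 669 bp in wild type. Crnde (chr8:92355280-92356388), 1407 bp from Irx5, had 772 and 785 bp in knock-in, 861 bp in wild type 1 and no peak in wild type 2. All 4 of these regions were thus missed by 1 library, and in 3 of them that library was wild type 2.

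Dleu2 had 2 members. The one at its start (chr14:61681045-61683546) had 2037, 2492, 1986 and 2025 bp and a mean score percentile of 90.6, and the one inside the gene (chr14:61647443-61649062) had 1378, 1173, 1418 and 890 bp. At the start both knock-in values were above both wild type values by a narrow margin, and inside the gene the genotypes overlapped. The order at the start was that of 35.4% of all 5465 regions in 4 lists. Chaserr (chr7:73556366-73558886), 14619 bp from Chd2, had 2399, 1764, 1575 and 1371 bp, and it had a peak in every library except knock-in 4. Its mean score percentile of 97.4 was the fourth highest of the 397.

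A row of acetylated stretches lay next to Mef2c, a transcription factor gene of neuronal differentiation. There, 4 members spread over Gm52046 and C130071C03Rik at 47123 to 61728 bp from Mef2c. The last of them (chr13:83728808-83734613) had 4732, 3639, 4395 and 4262 bp and a mean score percentile of 98.4. The others had 2379, 961, 1319 and 1173 bp (chr13:83714203-83716581), 3403, 2901, 2881 and 1827 bp (chr13:83720110-83723967), and 2481, 2710, 2507 and 2530 bp (chr13:83725034-83727963). In the second of the row, both knock-in values were above both wild type values, as in 35.4% of all 5465 regions in 4 lists. Elsewhere in the row the genotypes overlapped.

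Members also lay in rows elsewhere: 67 of them formed 27 runs in which neighbours were at most 20 kb apart. The largest run held 6 members over 62250 bp on chromosome 2 between Cstad and 1700001O22Rik (chr2:30657955-30720204), of which 4 lay at the lncRNA genes Gm14486 and Gm14488 and 2 had no listed gene. Mir670hg, which overlaps the Mir129-2 member, carried 2 further members besides the miRNA one, of which the wider (chr2:94244317-94248181) had 1295, 2153 and 3580 bp and no peak in wild type 2. At 3865 bp it was among the 8 widest members.

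Genes of small and structural RNAs occur in near-identical copies, and the sources used here do not say whether reads with several matches were kept, so which copy carried the signal is uncertain. Rnu2-10, a gene of the U2 spliceosomal RNA (chr11:101657390-101659343), had no peak in knock-in 1 and 1944, 1268 and 1914 bp in the others. Beside it, members at the small nuclear RNA genes Gm24950 (chr11:101640809-101642117) and Gm23971 (chr11:101645288-101647102) had 894, 1069, 1037 and 943 bp and 1184, 1413, 836 and 1292 bp. Small nuclear RNA genes made similar rows on chromosome 1 between Mreg and Pecr, with 3 members of 692 to 1336 covered bp, and on chromosome 3 between BC107364 and Hjv, where the members at Gm25890 and Gm22614 had 971 to 1636 bp. Rny1, a Y RNA gene transcribed by RNA polymerase III (chr6:47788165-47789583), had 816 and 1269 bp in knock-in, 1123 bp in wild type 1 and no peak in wild type 2. The 5S ribosomal RNA genes on chromosome 8 held 2 members. In the wider (chr8:123607360-123611769) 791 and 943 bp were covered in knock-in and 4405 bp in wild type 1, with no peak in wild type 2. In the other (chr8:123586999-123588356) knock-in 1 had no peak and the other values were 1206, 662 and 998 bp. None of the 25 members of this group, with the 3 at miscellaneous RNA genes counted, had a peak in knock-in 4, wild type 3 or wild type 4. There, a count of 0 of 25 allows a share of up to 13.7% (exact Clopper-Pearson 95% interval, counting error only). In knock-in 3, 2 of the 25 had a peak.

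Pseudogenes share sequence with their parent genes, and the same limit holds for the 24 members that had only a pseudogene. A cluster of 5 members lay on chromosome 8 between 4930467E23Rik and Gm21119, and pseudogenes named the ones at Gm10060 (chr8:19784087-19785754), Gm20583 (chr8:20296360-20297936) and Gm20584 (chr8:20423700-20425358). At Gm10060 the values were 1668, 1556, 962 and 1517 bp, and at Gm20584 they were 1382, 1649, 1425 and 1533 bp. At Gm20583 wild type 1 had no peak and the other lists had 1244, 1262 and 1507 bp. The remaining members of that cluster had no listed gene, and the genotypes overlapped at Gm20584, while at Gm10060 both knock-in values were the higher ones.

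The 188 members with no listed gene included the widest member but were not wider as a group. Of them 3.19% were over 3000 bp wide, against 5.26% of the 209 members with a non-coding gene or pseudogene. A region between Polr3d and Bmp1 (chr14:70456647-70463378, 6732 bp) had 5368, 4140, 6029 and 3131 bp, with replicate 2 the lower in each genotype. A region between Ahdc1 and Wasf2 (chr4:133093445-133098485) had 4154, 3662, 3560 and 1487 bp. The region with the highest mean score percentile, 99.9, lay between Wnt7b, a Wnt ligand gene, and Ppara, a nuclear receptor gene (chr15:85666691-85673223). There 6134 and 5463 bp were covered in the knock-in lists and 2795 and 3272 bp in the wild type lists, and it had a peak in 7 of 8 libraries. It was 1 of 4 members on that side of Wnt7b, and its neighbour (chr15:85652986-85655646) had 2479 and 2037 bp in knock-in against 1149 and 1201 bp in wild type. At both the genotypes did not overlap. The log2 differences were both 0.94 ± 0.24 (SE, n = 2 per genotype), with a limma adjusted p of 0.547 for each, so neither passed the test. With only peaks above the median score of their list, the difference at the neighbour fell to 0.21 and that at the wider region stayed at 0.94.

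The members farthest from any protein-coding gene were a pseudogene region at Gm8357 on chromosome 1 (chr1:48881256-48881886, 1955479 bp from Slc39a10), a region 616161 bp from Arid1b (chr17:4376557-4378135), one 603145 bp from Castor2 (chr5:133495000-133496602), one 588394 bp from F2rl3 (chr8:73352293-73353938) and one 558795 bp from Ndufa4 (chr6:11340217-11341576). The Gm8357 region was also the narrowest member, with 585, 548 and 631 bp and no peak in wild type 2. Only the F2rl3 region of these 5 was in all 4 long lists, with 1567, 1496, 1074 and 918 bp.

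Neighbouring protein-coding genes were counted where they were the nearest gene on a side and within 100 kb, which 494 of 21627 genes were (2.28%). Of 31 genes of the granule cell lineage, 7 were neighbours (22.6%): Calb2, Meis1, Neurod1, Nfib, Zic1, Zic2 and Zic5. Of 26 activity and clock genes, 5 were: Egr1, Egr3, Fosb, Ier2 and Nr4a3 (19.2%). Of 52 patterning and developmental transcription factors, 6 were (11.5%), and of 27 Purkinje cell and 23 glia and vessel genes, none was. The lists were chosen with earlier results known, and a nearby gene is a position and not a target.

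Granule cells are the most numerous neurons of the cerebellum, and their transcription factor genes had members close by. The region 1447 bp from Neurod1, a factor of granule neuron differentiation (chr2:79458084-79461359), had 2144, 2246, 1945 and 1914 bp. The region 7439 bp from Meis1 (chr11:18871003-18872988), at the lncRNA 8430419K02Rik, had 1467, 1617, 1635 and 1885 bp. The region 3524 bp from Zic1 (chr9:91350780-91354533), which holds the Gm40545 promoter printed above, had 3622, 2197, 2171 and 1841 bp. At Neurod1 and Zic1 both knock-in values were above both wild type values, and at Meis1 the 2 wild type values were the higher ones. None of these 3 regions was called by the limma test.

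Immediate early genes, which respond within minutes to neuronal firing, also had members close by, of which those near Nr4a3 and Fosb were in all 4 long lists. The region 1380 bp from Nr4a3 (chr4:48042259-48043697) had 1390, 1089, 1141 and 648 bp. The region 1211 bp from Egr3 (chr14:70074466-70076105) had 1604 and 1446 bp in knock-in, no peak in wild type 1 and 1461 bp in wild type 2. The region 22318 bp from Fosb (chr7:19332437-19334615) had 1490, 1519, 2062 and 665 bp. In these 3 regions the genotypes overlapped wherever all 4 lists had a peak. Among developmental factors, the region 69611 bp from Npas3 (chr12:53177655-53178414) had no peak in knock-in 1 and 634, 760 and 660 bp in the others, the region 1960 bp from Id3 (chr4:136147353-136148794) had 907, 1246, 1030 and 1119 bp, and the region 20371 bp from Tcf12 (chr9:72132265-72134089) had 1591, 1255, 1243 and 1508 bp.

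Replicates 3 and 4 played no part in choosing the members and show how far they recur. A peak was present at 20.4% of the 397 members in knock-in 3 (exact Clopper-Pearson 95% interval 16.5% to 24.7%), 11.8% in knock-in 4 (8.83% to 15.4%), 17.1% in wild type 3 (13.6% to 21.2%) and 12.8% in wild type 4 (9.72% to 16.5%). These intervals cover counting error only. Averaged by genotype, the share was 16.1% ± 6.06 (SD, n = 2) for knock-in libraries and 15.0% ± 3.03 (SD, n = 2) for wild type libraries. The difference of 1.13 percentage points was smaller than the spread between replicates (two-sided exact permutation test over libraries, p = 1, where 2 against 2 cannot give less than 0.333). Without knock-in replicate 3 it became -3.15 points and without wild type replicate 4 it became -1.01, so its direction rests on single libraries.

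In knock-in 3 members were found less often than gene-end regions, in wild type 3 at a share whose interval overlapped theirs, and in both replicate 4 lists more often. Gene-end regions had a peak in 35.4% and 3.23% of cases in knock-in 3 and 4 and in 19.2% and 5.39% in wild type 3 and 4. Members minus gene-end regions thus differed by -15.0 and 8.61 points in knock-in 3 and 4 and by -2.07 and 7.46 points in wild type 3 and 4. Gene-body regions lay between the other classes in knock-in 3, knock-in 4 and wild type 4, and in wild type 3 they were at 19.9%. Averaged over the 4 libraries, members minus gene-end regions came to -0.259 points and members minus gene-body regions to -0.160 points (two-sided exact sign-flip permutation test, p = 1 for both, where 4 libraries cannot give less than 0.125). Both replicate 4 lists were also those with the largest share of peaks on unplaced sequences, 12.5% and 10.2%, and the part of this in the result was not tested.

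**Figure D3:**
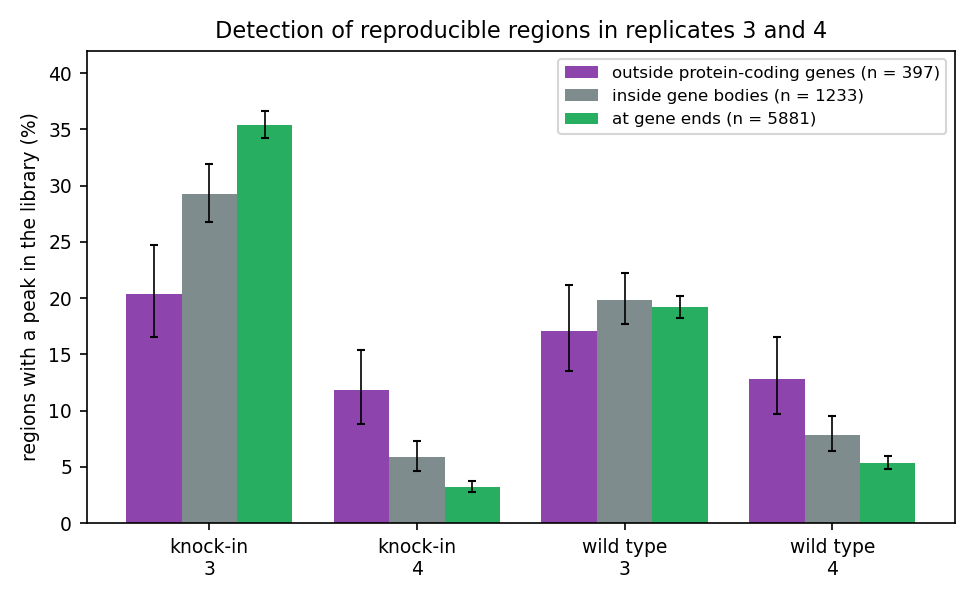
Share of reproducible regions with a peak in each library that the rule did not use (vertical axis, percent; bars with exact 95% Clopper-Pearson intervals), for the 397 members, 1233 gene-body regions and 5881 gene-end regions. Members are the lowest bars in replicate 3 and the highest in replicate 4 of both genotypes.

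Members with no listed gene had larger shares in replicates 3 and 4 than the pooled members with a non-coding gene or pseudogene, but not than every group of these. Members with no listed gene had a peak in 23.9%, 20.2%, 25% and 19.7% of cases in knock-in 3, knock-in 4, wild type 3 and wild type 4, and members with a non-coding gene in 17.2%, 4.31%, 10.0% and 6.70%. The difference was positive in 4 of 4 libraries, at 6.71, 15.9, 15.0 and 12.98 points, with a mean of 12.6 (two-sided exact sign-flip permutation test, p = 0.125, the smallest 4 libraries can give). It therefore could not pass 0.05, and the comparison was chosen after its values were seen. Within the second set, members at miRNA genes had a peak in 8, 1, 5 and 2 of 14 cases in the same order of libraries, and those at lncRNA genes in 20, 7, 14 and 10 of 146. The miRNA shares in knock-in 3 and wild type 3, 57.1% and 35.7%, were above those of members with no listed gene. So was the 25% of members with only a pseudogene in knock-in 3.

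**Figure D4:**
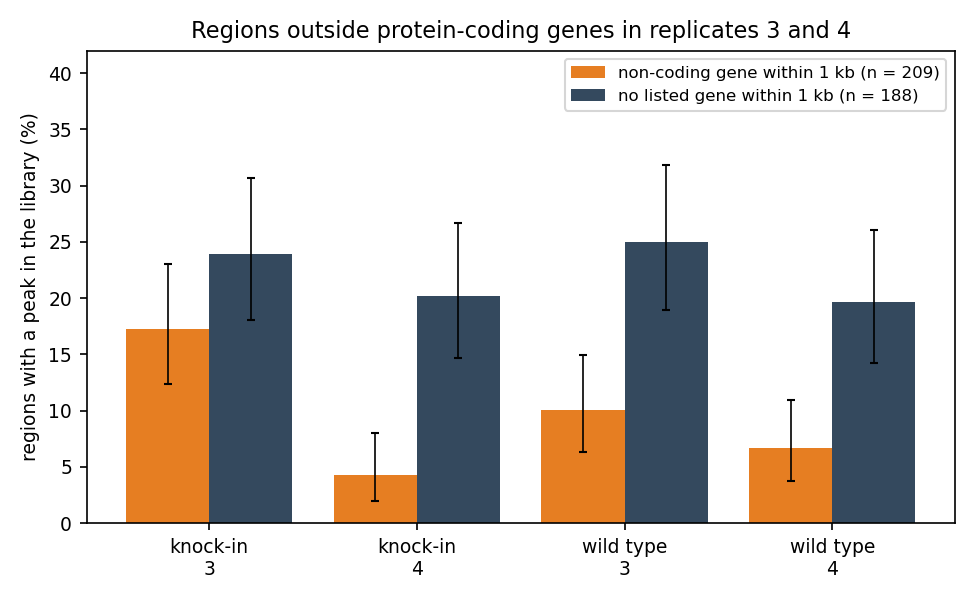
Share of members with a peak in each of replicates 3 and 4 (vertical axis, percent; bars with exact 95% Clopper-Pearson intervals), for the 209 members with a non-coding gene or pseudogene within 1 kb and the 188 with no listed gene. The bars without a listed gene sit at 19.7% to 25% in all 4 libraries, and the others range from 4.31% to 17.2%.

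Long acetylated stretches in the short lists were few. Of 137 members with a peak in at least 1 of replicates 3 and 4, 8 had 500 bp or more covered in any of these lists and 3 had 1000 bp or more. One lay 26745 bp from Sfi1 (chr11:3099748-3105104), and its coverage was 5222, 5309, 5271 and 5237 bp in the long lists and 3932, 2566, 3473 and 3253 bp in knock-in 3, knock-in 4, wild type 3 and wild type 4. Another lay 80164 bp from Vmn1r2 (chr4:3088707-3091918) and had no peak in knock-in 1 but 1674, 1462, 1652 and 1656 bp in the same 4 lists. The third was the region between Wnt7b and Ppara, with 1129 bp in knock-in 3, 1134 bp in wild type 3, 468 bp in wild type 4 and no peak in knock-in 4. A region 91975 bp from Kcnh5 (chr12:74803205-74805241) was also without a peak in knock-in 1 and had 641, 751, 818 and 666 bp in the short lists. The limit on reads with several matches holds for these and other recurring regions with no listed gene. Repeated sequence in them was not examined.

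A peak in all 8 libraries was found at 5 members. Besides the Sfi1 region they were a region 390937 bp from Nbea (chr3:56574686-56576546), the lncRNA Gm34259 (chr17:4625927-4626796), a region 18064 bp from Arhgap32 (chr9:32286508-32287413), and the lncRNA genes Gm36598 and 2700046A07Rik (chr18:62753058-62754843). Coverage in the 4 short lists was 206 to 273 bp at Gm34259, 104 to 226 bp near Arhgap32 and 305 to 591 bp at 2700046A07Rik.

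A peak in both knock-in and neither wild type list of replicates 3 and 4 was seen at 2 members, where 0.612% of the 7511 reproducible regions showed this pattern, and the reverse at 3 members, where 0.306% did. The 2 were the region between Polr3d and Bmp1 and one near Hcar2, and the 3 lay near Dnase2b, Fam76a and Dyrk2; all 5 were named after their values were seen and none had a listed gene. A peak in both replicate 4 lists was present at 30 members (7.56%), against 0.816% of gene-end and 2.92% of gene-body regions. Of these 30 members, 23 had no listed gene.

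The covered length of peaks was compared between genotypes in replicates 1 and 2 for regions in all 4 lists, which 177 members were. By limma on the log2 covered length, adjusted over all 5465 such regions, 0 members were called, and 0 of the 5465 were (0%). At an unadjusted p under 0.05 there were 16 members and 447 regions in all. Data were simulated with independent noise of each region's own spread. There, the same fit called 1 of 100 regions changed by 2-fold and 63 of 100 changed by 4-fold. In that setting changes of 2-fold were mostly not detectable. Shifts shared by a whole library were not simulated, so the limit in the real lists may differ.

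The median covered length of members was 1350 and 1293 bp in knock-in and 1316 and 1070 bp in wild type, with wild type 2 alone low. The median log2 difference over the 177 members was 0.14, and 74.0% of them were on the positive side, against 0.20 and 77.7% over all 5465 regions. After each library was centred on its own median, which moved the median of all regions by 0.22 on the log2 scale, members had a median of -0.082 with 40.7% positive, and all regions -0.015 with 47.7%. The direction over the members therefore depended on the scaling. In 55 members (31.1%) both knock-in lists covered more than both wild type lists, where 35.4% of all regions did, and in 15 (8.47%) both covered less, where 4.68% did. The first share was near the background.

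Among members without a listed gene, 18 of 73 were longer in both knock-in lists and 10 were shorter, and among those with only a lncRNA gene, 24 of 67 were longer and 3 were shorter. As shares these were 24.7% and 13.7% without a listed gene and 35.8% and 4.48% at lncRNA genes, and the latter were close to the background of 35.4% and 4.68%. The difference between the groups was not tested. The members with the smallest p on the positive side were the pair between Wnt7b and Ppara, Mir9-1, and a region between Cxxc5 and Psd2 (chr18:35937784-35939319) with 1536, 1378, 937 and 694 bp. That region had a log2 difference of 0.85 ± 0.25 (SE, n = 2 per genotype; limma adjusted p = 0.570).

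On the negative side, the region 390937 bp from Nbea had 783 bp in both knock-in lists and 1316 and 1325 bp in the wild type lists, and it had the smallest p in that direction. It was present in all 8 libraries, with 346 and 315 bp in knock-in 3 and 4 and 363 and 366 bp in wild type 3 and 4. In these short lists the knock-in values were the lower ones by a narrow margin. How many of all regions show this order in replicates 3 and 4 was not counted, so no background is given. The region was picked by its p, and the order is not read as a recurrence of the difference. The region's log2 difference in replicates 1 and 2 was -0.75 ± 0.22 (SE, n = 2 per genotype, limma adjusted p = 0.570). The lncRNA 1700096K18Rik on chromosome 5 (chr5:25529057-25531269) had 1219, 1347, 1554 and 1959 bp, and a region 4538 bp from Sipa1l1 (chr12:82163403-82164838) had 948, 982, 1395 and 1187 bp. Their log2 differences were -0.45 ± 0.24 and -0.42 ± 0.23 (SE, n = 2 per genotype), with limma adjusted p of 0.634 and 0.640, and neither passed the test.

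**Figure D5:**
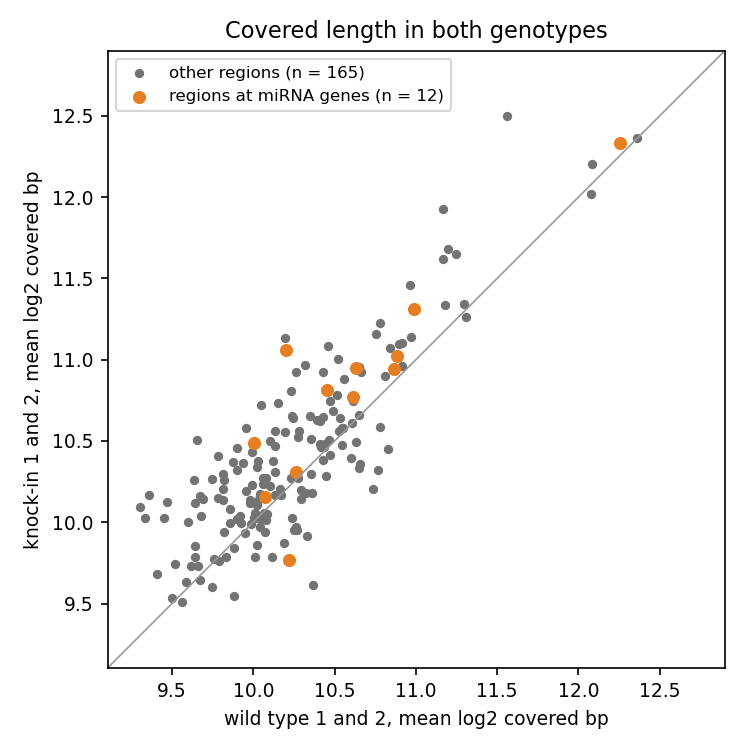
Mean log2 covered length in knock-in replicates 1 and 2 (vertical axis) against wild type replicates 1 and 2 (horizontal axis) for the 177 members in all 4 lists, with the 12 at miRNA genes in orange and the line of equality in grey. Most points, 74.0%, lie above the line, before any centring of the libraries, and none passed the limma test.

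The authors' score gave no separation of the genotypes either. The median percentile of member peaks within their own list was 37.3 and 50.7 in knock-in 1 and 2 and 56.2 and 36.8 in wild type 1 and 2. The means were 44.0 ± 9.44 (SD, n = 2) and 46.5 ± 13.7 (SD, n = 2), and the difference of -2.50 was smaller than the spread between replicates (two-sided exact permutation test, p = 1, smallest possible 0.333). Gene-end regions in the same 4 lists had medians of 67.6, 69.2, 69.6 and 60.3.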

How the data were processed

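The data were peak lists from 8 H3K9ac libraries, 4 per genotype. Per the submitters' processing notes, the tool named is Bowtie2 and the build is mm10. Per the file headers peaks were called with MACS in Galaxy, 1 list per library. For MACS, the version, settings and input control were not given in the sources used here. Each deposited value is the authors' score for a peak, of unstated scale, used here only as a percentile within its own list. Negative starts, found in 15 of 52676 peaks, were replaced by 0.

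Peaks of replicates 1 and 2 were merged at an overlap of 1 bp and placed against 21627 protein-coding and 27237 non-coding genes and pseudogenes of the RefSeq table of GRCm38.p6. Covered length was fitted with limma 3.58.1 (R 4.3.3, lmFit and eBayes) on log2 base pairs, with a threshold of 0.05 after Benjamini-Hochberg adjustment. Shares were compared by exact permutation over libraries (numpy 2.4.6), and Clopper-Pearson intervals were computed with scipy 1.17.1. The fit was tested on simulated data. Replicate numbers are shared by the genotypes, but the labels do not say that they pair libraries. The members and gene lists were chosen with earlier results of these data known. Regions were named if they lay at a listed non-coding gene, were among the 10 in most libraries, the 8 widest, the 5 farthest from genes, the 5 with the highest score percentile, or the 4 in each direction with the smallest p, or lay next to a listed neighbour gene, up to 3 per list. Further names were chosen after their values were seen: the other miRNA genes, the other regions beside Mef2c, the run next to Cstad, and the small nuclear and 5S RNA and pseudogene rows. Alternatives were other gene windows, overlaps, score filters, scalings and left-out replicates. No genome sequence was used here, so motifs were sought in promoters only.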

Additional observations from a re-analysis of the deposited data

Results flagged for a closer look

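Among 62 sets of 4 library values examined, 1 held a library far from the others. At members with only a pseudogene, the median score percentile in knock-in 3 was 70.3, away from the other 3 knock-in libraries. The value rests on 6 of 24 members with a peak in that library. Chance alone gives such a gap in about 1 in 20 sets.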

How the results depend on the processing

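Requiring a peak in all 4 lists left 177 members, 104 of them with a non-coding gene, and keeping only peaks above the median score of their list left 100 and 63; gene windows of 500 bp and 5 kb gave 411 and 315. The number of regions called by covered length stayed at 0 under the other alternatives, and a replicate block gave 6 calls over all regions and 0 members. The correlation over regions between same-numbered libraries was -0.03. It cannot decide whether they are paired, since it leaves out shifts shared by a whole library. The median log2 difference over members turned to -0.082 with centred libraries, was 0.29 without wild type replicate 1 and ranged from 0.04 to 0.29 with a replicate left out. Among the named regions, the log2 difference at Mir129-2 was -0.20 without wild type replicate 1 and -0.71 without wild type replicate 2, and at 1700096K18Rik it was -0.28 without wild type replicate 2. The genotype difference in shares ranged from -3.15 to 5.42 points when a replicate was left out, and was 1.13 with p = 1 when genotypes were exchanged only within replicate number (exact permutation). Members minus gene-end regions was 1.03 points with the 5 kb window and 0.53 in log2 odds, and ranged from -3.22 to 4.67 with a replicate left out; members minus gene-body regions was 0 and 0.24, and ranged from -2.21 to 2.75. The score percentile difference was 2.81 for regions in all 4 lists and ranged from -12.2 to 7.20 with a replicate left out. The higher share of members with no listed gene was positive in every alternative run, from 9.59 to 14.6 points. The causes of these changes were not tested. With 2 libraries per group and no read counts, only large differences could pass a test.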
